A study of Mus musculus with 12 samples.

Results

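The 10 genes described here, H19, Igf2, Igf2r, Meg3, Dlk1, Grb10, Peg3, Ndn, Mest and Plagl1, were chosen by name as imprinted genes of interest in hematopoietic stem cells, not by a threshold on their values, and all 10 were found by symbol among the 49585 genes of the count files. The choice was made with earlier results of these data known. The cells were sorted from bone marrow of C57BL/6J mice aged 10 to 14 weeks as Lin-, Sca1+, ckit+, CD135-, CD150+. They are labelled LT-HSCs, but the study's methods describe this gate as holding LT-HSCs together with MPP2 progenitors, and they are called HSCs below. The groups were 6 wild-type (WT) mice from Charles River and 6 Pon2-/- mice, in which a loxP-flanked β-geo gene trap sits in intron 2 of Pon2, the gene of the antioxidative enzyme paraoxonase 2. No treatment was given to either group, and no source used here says that the WT mice were littermates. Each library stands for 1 mouse, from 8 wells of 10 sorted cells prepared with Smart-seq2, and held 12967791 to 24228280 counted reads in WT and 14671353 to 23122382 in Pon2-/- HSCs.

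Imprinted genes are expressed only or mainly from the maternal or the paternal copy, some of them in certain tissues only. Methylation laid down in the egg or sperm is kept through later cell divisions and marks the copies. Many of them act on growth. IGF2 is a growth factor, IGF2R carries it to the lysosome for breakdown, and GRB10 is an adaptor that dampens insulin and IGF receptor signalling. H19 and Meg3 are maternally expressed long noncoding RNAs, neighbours of the paternally expressed Igf2 and Dlk1. In adult HSCs, the maternally expressed products of the H19-Igf2 and Dlk1-Meg3 regions are known for their part in keeping stem cells quiescent. The counts add reads from both parental copies, so they give levels and not the parent of origin.

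The genes lie in several imprinted regions (GRCm38, GENCODE release M21). H19 (ENSMUSG00000000031.15, lincRNA, minus strand) spans chr7:142575529-142578143. Igf2 (ENSMUSG00000048583.16, minus strand) lies next to it at chr7:142650766-142666816. Dlk1 (ENSMUSG00000040856.17, plus strand) at chr12:109452823-109463336 and Meg3 (ENSMUSG00000021268.17, lincRNA, plus strand) at chr12:109541001-109571726 form a second pair. Ndn (ENSMUSG00000033585.5, chr7:62346569-62350262, plus strand) has a single exon and belongs to the Prader-Willi region. Peg3 (ENSMUSG00000002265.16) is at chr7:6703892-6730431, Igf2r (ENSMUSG00000023830.13) at chr17:12682406-12769664 and Grb10 (ENSMUSG00000020176.17) at chr11:11930508-12038683, all on the minus strand. Mest (ENSMUSG00000051855.15) is at chr6:30723547-30748465 and Plagl1 (ENSMUSG00000019817.18) at chr10:13060504-13131694, both on the plus strand.

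Promoter sequence is shown for Meg3, which had reads in one genotype only, for Igf2, which had reads in every WT library, and for Ndn, the gene with the highest level of the 10. Each line holds 250 bases before and 50 after an annotated start, 5′ to 3′ on the gene's strand, from RefSeq (GRCm38.p6), with CpG dinucleotides, the sites at which imprinting methylation is placed, in capitals. The table held 16 such promoters for 9 of the 10 genes, with no entry for H19. Meg3 is chr12:109540746-109541045, Igf2 is the outermost of 4 starts at chr7:142666767-142667066, and Ndn is chr7:62348027-62348326.
Igf2 promoter: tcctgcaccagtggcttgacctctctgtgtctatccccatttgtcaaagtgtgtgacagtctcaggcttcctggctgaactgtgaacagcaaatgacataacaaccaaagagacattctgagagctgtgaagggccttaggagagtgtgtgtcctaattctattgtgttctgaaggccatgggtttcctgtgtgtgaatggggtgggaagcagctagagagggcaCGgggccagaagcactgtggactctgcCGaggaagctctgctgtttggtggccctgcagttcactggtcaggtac
Meg3 promoter: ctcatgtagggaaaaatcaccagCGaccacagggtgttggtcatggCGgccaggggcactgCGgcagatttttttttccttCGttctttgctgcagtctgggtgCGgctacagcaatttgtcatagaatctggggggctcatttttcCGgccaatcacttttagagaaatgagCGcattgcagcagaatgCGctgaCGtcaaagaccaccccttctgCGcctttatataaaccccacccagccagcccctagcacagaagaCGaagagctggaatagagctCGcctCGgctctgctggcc
Ndn promoter: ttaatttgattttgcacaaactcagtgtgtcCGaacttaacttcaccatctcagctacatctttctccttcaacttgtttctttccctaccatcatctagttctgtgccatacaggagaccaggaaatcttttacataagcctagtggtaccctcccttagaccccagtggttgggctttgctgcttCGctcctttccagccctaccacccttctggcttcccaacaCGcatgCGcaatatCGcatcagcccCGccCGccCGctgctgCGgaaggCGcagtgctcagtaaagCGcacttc
The Meg3 promoter shown held 13 CpGs, that of Ndn 11 and that of the outermost Igf2 start 2, while a second Meg3 start held 1 and the other Igf2 starts 7, 24 and 14, against a median of 7 over 32851 RefSeq promoters of the same length. Searching both strands, TATAAA was found in the Meg3 promoter 2 times, in overlapping matches on opposite strands, and was present in 13.6% of all promoters. The cAMP response element TGACGTCA, which reads the same on both strands, occurred in the promoters of Meg3 and Peg3 and in 1.79% of all promoters. The GC box GGGCGG was found 2 times in the Ndn promoter, was not in those of Meg3 or the outermost Igf2 start, and was present in 35.7% of all promoters. Methylation was not measured, and these matches describe the sequence only.

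Some of the genes host microRNAs, which are shown because H19 and Meg3 act in part through such products. The mature arms are from RefSeq, with the seed (bases 2 to 8) in capitals. miR-675 lies in an exon of H19, miR-483 within Igf2, miR-770 within Meg3 and miR-335 within Mest.
mmu-miR-675-3p: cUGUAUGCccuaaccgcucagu
mmu-miR-675-5p: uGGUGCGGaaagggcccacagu
mmu-miR-483-3p: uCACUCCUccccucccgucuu
mmu-miR-483-5p: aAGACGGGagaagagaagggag
mmu-miR-770-3p: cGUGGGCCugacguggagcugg
mmu-miR-770-5p: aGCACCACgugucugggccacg
mmu-miR-335-3p: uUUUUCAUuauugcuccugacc
mmu-miR-335-5p: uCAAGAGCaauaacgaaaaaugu
All 8 seeds differed from each other, so no family is shared. Counts of the microRNA genes themselves say nothing of these mature products, which are too short for a Smart-seq2 library.

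Of 14 HSC markers fixed for the cell type, including Kit, Ly6a, Procr, Hlf, Mecom and Slamf1, all 14 had counts in all 12 libraries, and their summed level was 2835 to 3487 CPM (reads scaled to a library of 1e+06 reads) in WT and 2717 to 3399 CPM in Pon2-/- HSCs. Pon2 itself was 55.8 to 200.2 CPM (median 104.2) in WT and 1.15 to 32.8 CPM (median 29.4) in Pon2-/- HSCs, with no overlap between genotypes, and Pon2-/- replicate 5 stood apart from its group at 1.15 CPM. Counts of Y-linked genes marked WT replicates 1 to 3 and Pon2-/- replicates 1 and 2 as female and the rest as male. Stromal cells express several of these imprinted genes. Of 10 stromal markers, 8 had a read. Col3a1 and Pdgfra were at 0 in every library, while Col1a2 (744 reads in WT, 1899 in Pon2-/-) and Pdgfrb (1073 and 794) had reads in 10 libraries each, Acta2 had 2 and 443 reads and Cxcl12 87 and 0. The summed level of the list was 3.62 to 33.2 CPM in WT and 8.69 to 86.1 CPM in Pon2-/- HSCs. Of 8 endothelial markers, Cdh5, Kdr, Plvap and Sox17 were at 0 throughout, Emcn had reads in all 12 libraries (8733 in WT, 8790 in Pon2-/-), Cldn5 in 8 (2380 and 896) and Flt1 in 4 (131 and 363), and the list summed to 45.8 to 149.1 CPM in WT and 53.3 to 134.1 CPM in Pon2-/- HSCs. B lineage markers summed to 25.3 to 316.3 CPM in WT and 58.3 to 735.5 CPM in Pon2-/- HSCs, with the highest value in Pon2-/- replicate 5. Myeloid markers summed to 872.2 to 9662 CPM in WT and 823.8 to 14763 CPM in Pon2-/- HSCs, megakaryocyte markers to 172.2 to 235.8 and 106.5 to 264.2 CPM, and T lineage markers to 0.0421 to 39.3 and 18.6 to 57.3 CPM. Erythroid markers summed to 53.2 to 72.4 CPM in WT and 28.5 to 69.2 CPM in Pon2-/- HSCs. Among them the globin gene Hbb-bt had 2855 reads in WT and 17 in Pon2-/- libraries, without overlap (exact permutation p = 0.00216, adjusted over all genes 0.592). The part of other cell types in the results below was not tested. A genotype-by-sex term (edgeR) was fitted for 29 imprinted genes, 4 of them among the 10, and none had an adjusted p below 0.05. In bulk samples, fewer cells of a type and less RNA per cell cannot be told apart.

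Ndn and Grb10 were the imprinted genes of this list that HSCs of every mouse expressed well. Levels of different genes were set side by side per kb of exon, counting all annotated exons of a gene whether or not they were used. The order therefore depends in part on the annotation. Meg3 has 18089 bp of exon and Ndn 3694 bp, and in CPM without this scaling Meg3 (0.884) was above Dlk1 (0.660). Ndn had a mean of 20.6 ± 8.24 CPM per kb (SD, n = 12), above 88.7% of the 25354 genes with a count and an exon length. Grb10 followed with 5.37 ± 2.09 CPM per kb, above 72.2% of genes. Ndn was higher than Grb10 in 12 of 12 libraries and Grb10 higher than Igf2r, at 1.39 ± 1.69 CPM per kb, in 11 of 12 (exact sign-flip tests over libraries, two-sided, adjusted p over 9 neighbouring pairs = 0.00439 for both). Below Igf2r, the order was H19 (0.967), Igf2 (0.669), Mest (0.606), Peg3 (0.258), Dlk1 (0.117), Meg3 (0.0488) and Plagl1 (0.0342 CPM per kb). No neighbouring pair from Igf2r downwards differed beyond the spread between libraries (exact sign-flip tests, adjusted p = 0.797 to 0.922). This order pools the genotypes and depends on them. Ndn and Grb10 led in both. In WT they were followed by H19 (1.86), Igf2r (1.72), Mest (1.20), Igf2 (1.11), Dlk1 (0.207), Peg3 (0.109), Meg3 (0.0977) and Plagl1 (0.0684 CPM per kb), and in Pon2-/- HSCs by Igf2r (1.05), Peg3 (0.406), Igf2 (0.231), H19 (0.0763), Dlk1 (0.0261) and Mest (0.0101 CPM per kb), with Meg3 and Plagl1 at 0. Neighbours within a genotype were not tested.

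The 10 genes fell into those found in every library and those found in some. Ndn, Grb10 and Igf2r had reads in all 12 libraries and Igf2 in 8. Meg3 had reads in 6 libraries, H19, Peg3 and Dlk1 in 5 each, Mest in 4 and Plagl1 in 2. The map of counts shows both that patchiness and where it lay. Of the 10 genes, 6 to 10 had a read in a WT library and 3 to 5 in a Pon2-/- library, without overlap between genotypes. Meg3 enters every WT tally and no Pon2-/- tally. The lowest WT tally, 6 in replicate 3, includes Meg3, so without this gene the tallies no longer separate the genotypes. The 10 genes were chosen with earlier results of these data known, and this contrast was not tested. For 54 other imprinted genes, 26 to 31 had a read in WT and 25 to 28 in Pon2-/- libraries, which overlap. The number of all genes with a read was 14163 to 15656 in WT and 13941 to 15202 in Pon2-/- HSCs, and these ranges overlap.

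**Figure D1:**
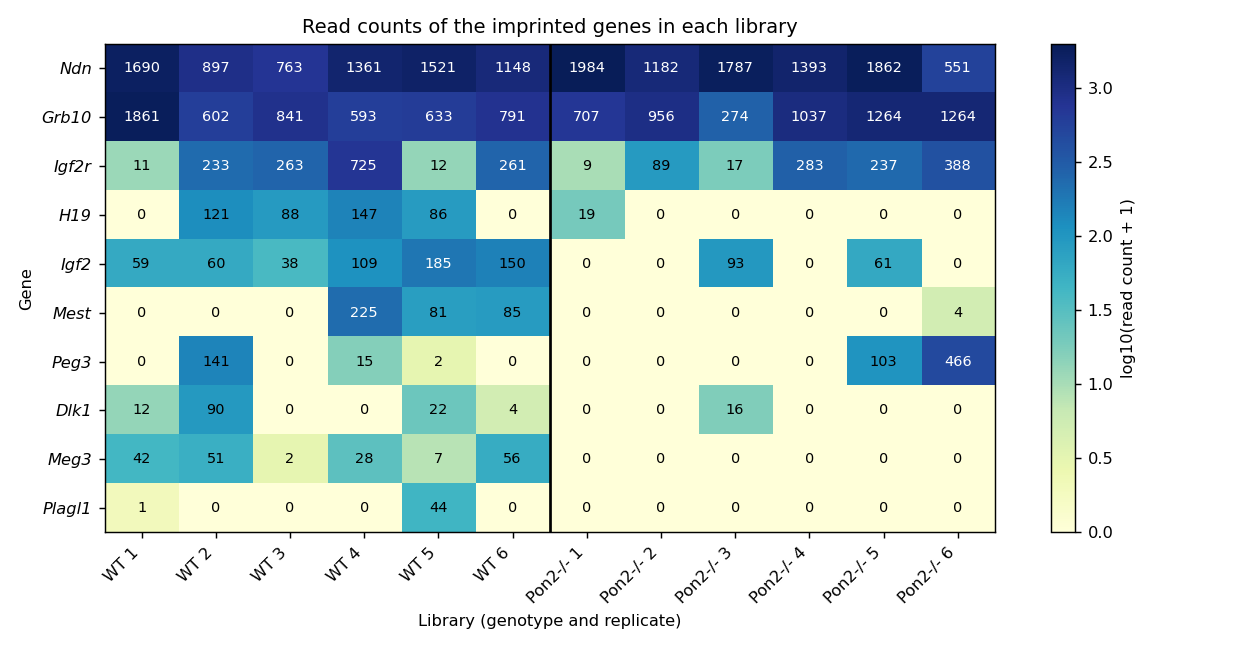
Read counts of the 10 imprinted genes (rows, ordered by mean level per kb) in each of 12 libraries (columns, WT left of the line and Pon2-/- right of it), coloured by log10(count + 1) with the count printed in each cell. Ndn, Grb10 and Igf2r have reads in all 12 libraries, while the row of Meg3 is above 0 in all 6 WT libraries and at 0 in all 6 Pon2-/- libraries.

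Whether loss of Pon2 altered these genes was the comparison of the design, and the edgeR quasi-likelihood test over all genes called none of them. Of the 10 genes, 4 (Ndn, Grb10, Igf2r and Igf2) had enough reads to be tested, and 0 of the 4 were called at an adjusted p below 0.05 and a fold change above 2, with 0 at an unadjusted p below 0.05. Over all genes, 24 of 11848 were called, which is 0.203%. DESeq2, the tool of the study, tested 9 of the 10 and called 1, Meg3, as lower in Pon2-/- HSCs, where it called 0.97% of all tested genes lower. Permuting the 6 WT and 6 Pon2-/- labels in all possible ways (exact test of mean log2 CPM, two-sided), which could be done for each of the 10 genes, gave an unadjusted p below 0.05 for 2 of them, Meg3 and Igf2, against 3.36% of the 25444 genes with a read. No gene of the series passed this test after adjustment over all genes, the smallest adjusted p being 0.592. With 6 against 6 libraries the test cannot give a p below 0.00216, so the adjusted value depends on how many genes reach that floor. Pon2 itself, the trapped gene, was at the floor without overlap between genotypes and also had 0.592. The adjusted value therefore cannot decide about a single gene. Every Pon2-/- library lay below every WT library for 1 of the 10 genes, Meg3, and for 0.141% of all genes.

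Meg3, whose RNA is made from the maternal chromosome, had 42, 51, 2, 28, 7 and 56 reads in WT replicates 1 to 6 and 0 reads in all 6 Pon2-/- libraries. The groups did not overlap, but the WT level was low and uneven, at 1.77 ± 1.27 CPM (SD, n = 6), and WT replicates 3 and 5 came near 0. With the 3 reads over the group that a count of 0 allows, Meg3 was at least 62.2-fold lower in Pon2-/- HSCs, for counting error only. The difference of mean log2 CPM carried an exact permutation p of 0.00216, the smallest that 6 against 6 can give. Its adjusted p over all genes was 0.592, the same as for Pon2 itself. DESeq2 gave Meg3 an adjusted p of 0.000108, while edgeR without a filter on low counts gave 0.281. Over the 3 fits that could test Meg3 the adjusted p ran from 4.01e-05 to 0.281. Meg3 is in the list of changed genes that the study drew from these samples with DESeq2, so that call is not independent evidence. Reads were present in both WT females (95 in 3 libraries) and WT males (91 in 3 libraries) and absent in both sexes of Pon2-/- mice. Being at 0 throughout one genotype and above 0 throughout the other was seen for 9 genes at 0 in Pon2-/- and 11 genes at 0 in WT libraries. Exons of Meg3 share 8.29% of their length with other annotated genes, Mir770 and Gm26906 among them, and reads there are not assigned to a single gene.

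The neighbours of Meg3 were as sparse. Dlk1, which encodes a transmembrane protein related to the Notch ligands, had 12, 90, 0, 0, 22 and 4 reads in WT replicates 1 to 6, and in Pon2-/- HSCs it had 16 reads in replicate 3 and 0 in the other libraries. WT averaged 1.17 ± 1.83 CPM and Pon2-/- HSCs 0.147 ± 0.361 CPM (SD, 6 libraries each), the groups overlapped at 0, and the exact permutation p was 0.152. Rian, a noncoding RNA of the same maternally expressed unit, was singled out after its values were seen. It had 74 reads in WT replicate 2, 21 in WT replicate 4 and 0 in every other library of both genotypes (exact permutation p = 0.455). For counting error only, it was at least 31.8-fold lower in Pon2-/- HSCs. Without WT replicate 2 that limit was 8.49-fold. Rtl1, Mirg and Dio3, further genes of the region that were likewise singled out afterwards, were at 0 in all 12 libraries.

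Igf2 had reads in each WT library, 59, 60, 38, 109, 185 and 150 in replicates 1 to 6. In Pon2-/- HSCs it had 93 in replicate 3, 61 in replicate 5 and 0 in the other 4. The 4 empty libraries lay below all WT libraries, while the 2 others lay within the WT range. WT averaged 6.34 ± 4.67 CPM and Pon2-/- HSCs 1.32 ± 2.18 CPM (SD, 6 libraries each). The edgeR log2 fold change was -2.23 ± 1.61 (SE), with an adjusted p of 1.0, and the exact permutation p was 0.0238 unadjusted. In WT, the 3 female libraries had 1.52 to 3.14 CPM and the 3 male libraries 8.44 to 13.3 CPM, which also separates replicates 1 to 3 from 4 to 6. Within females, Igf2 averaged 2.38 CPM in WT and had 0 reads in Pon2-/- HSCs, and within males 10.3 and 1.99 CPM, so WT was the higher in both sexes. The estimate moved with the model, to -3.93 with sex as a covariate, a fit chosen after seeing the data, to -4.90 with limma voom and to -6.65 with a replicate block, all at an adjusted p of 0.541 or more.

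H19, the maternally expressed partner of Igf2 and host of miR-675, had 0, 121, 88, 147, 86 and 0 reads in WT replicates 1 to 6 and 19 reads in Pon2-/- replicate 1, with 0 in the other Pon2-/- libraries. WT averaged 4.57 ± 4.36 CPM and Pon2-/- HSCs 0.188 ± 0.460 CPM (SD, 6 libraries each). The groups overlapped because WT replicates 1 and 6 had no read, and the exact permutation p was 0.0606. Leaving out either of these WT libraries gave an exact permutation p of 0.0281, leaving out any other WT library gave 0.106, and leaving out a Pon2-/- library gave 0.0606 (replicate 1) or 0.0996 (the others). H19 did not pass the filter on low counts for the edgeR test, and DESeq2 gave it an adjusted p of 0.736 (0.385 to 1.0 over 10 fits that could test it). Of 461 H19 reads in all, 95.9% came from WT libraries.

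Mest, a paternally expressed gene of the α/β-hydrolase fold family and host of miR-335, was found in WT replicates 4, 5 and 6 with 225, 81 and 85 reads, in Pon2-/- replicate 6 with 4 reads and in no other library. The 3 WT libraries with reads were the 3 male ones. All 5 female libraries were at 0, as were 3 of the 4 male Pon2-/- libraries. WT averaged 4.74 ± 6.78 CPM and Pon2-/- HSCs 0.0397 ± 0.0973 CPM (SD, 6 libraries each), with an exact permutation p of 0.182 and a DESeq2 adjusted p of 0.354 (0.260 to 0.354 over 3 fits). Mest shares 23.1% of its exon length with the convergent gene Copg2. Smart-seq2 does not mark strand, so reads in that stretch cannot be given to either gene.

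**Figure D2:**
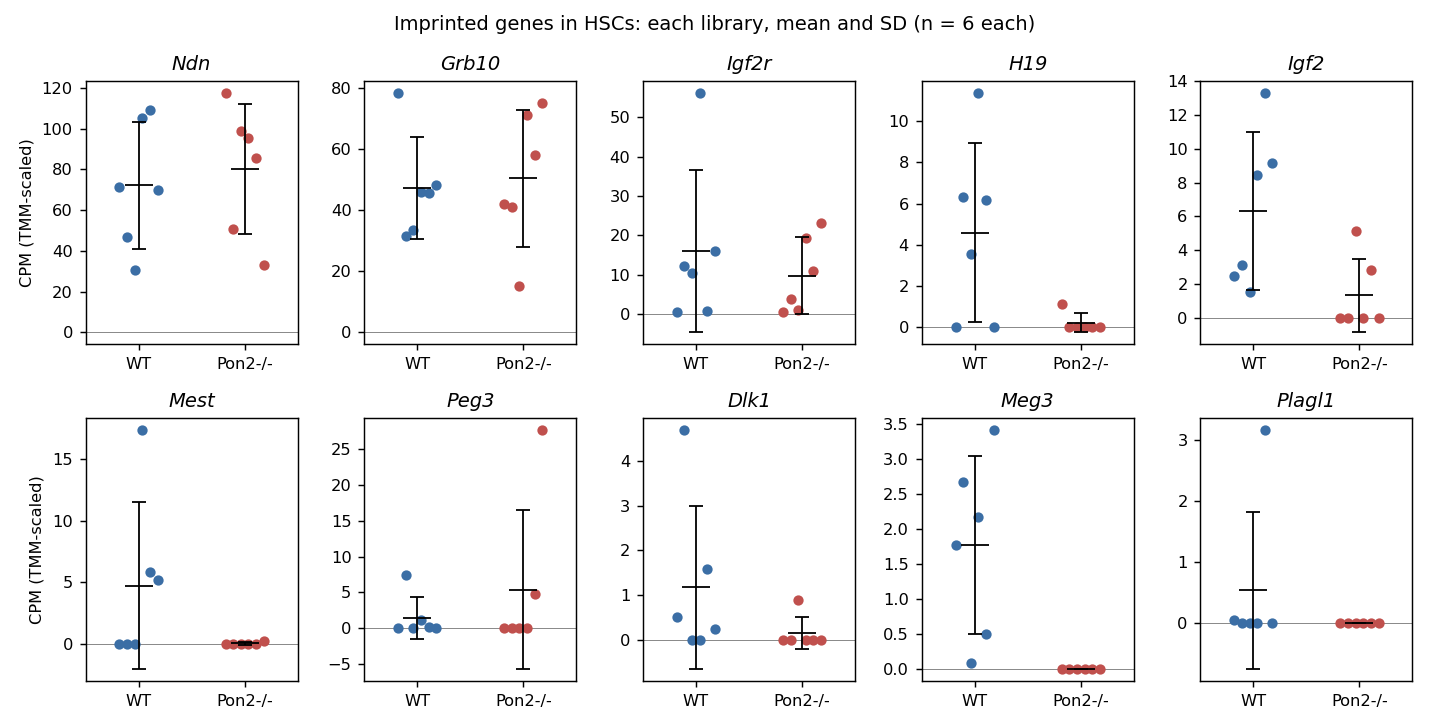
CPM of each of the 10 imprinted genes (panels, each with its own linear axis) in WT and Pon2-/- HSCs; points are single libraries, black lines the mean and SD of 6 libraries. The ranges of Ndn and Grb10 overlap between genotypes, Meg3 is above 0 in WT only, and Igf2, H19 and Mest have means of 6.34, 4.57 and 4.74 CPM in WT against 1.32, 0.188 and 0.0397 CPM in Pon2-/- HSCs.

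Plagl1 and Peg3, which encode zinc finger proteins made from the paternal copy, had reads in few libraries. Plagl1 had 44 reads in WT replicate 5, 1 in WT replicate 1 and none elsewhere, with an exact permutation p of 0.455. Its lower limit of at least 15.1-fold rests on WT replicate 5, since without that library 1 read was left and no limit could be given. Peg3 had 141, 15 and 2 reads in WT replicates 2, 4 and 5, and 103 and 466 reads in Pon2-/- replicates 5 and 6. Of its reads, 64.1% were in Pon2-/- replicate 6, and its means of 1.45 ± 2.94 CPM (WT) and 5.42 ± 11.1 CPM (Pon2-/-) did not differ beyond the spread (exact permutation p = 0.848). Within females Peg3 averaged 2.46 CPM in WT and had no read in Pon2-/- HSCs, and within males it averaged 0.435 and 8.12 CPM, a difference between sexes that was not tested. The sign of its difference in log2 CPM turned without either of the Pon2-/- libraries that had reads.

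Igf2r had reads in all libraries at very different levels. WT replicates 1 to 6 had 0.464, 12.2, 10.5, 56.1, 0.863 and 15.9 CPM, and Pon2-/- replicates 1 to 6 had 0.533, 3.81, 0.940, 19.4, 10.9 and 23.1 CPM. Low libraries, near 1 CPM or under it, and libraries over 10 CPM occurred in both genotypes. The log2 fold change was -0.71 ± 1.17 (SE, edgeR adjusted p = 1.0) and turned to 0.29 without WT replicate 4. Airn, the noncoding RNA that overlaps Igf2r and silences its paternal copy, was named after its values were seen and averaged 10.5 ± 9.72 CPM over WT libraries against 5.63 ± 6.38 CPM over Pon2-/- libraries (SD). Since its gene body overlaps that of Igf2r and strand is not marked, unspliced reads of Igf2r and reads of Airn cannot be told apart.

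Grb10 and Ndn, the well expressed genes, had genotype ranges that overlapped. Grb10 was 31.5 to 78.4 CPM in WT and 15.1 to 75.3 CPM in Pon2-/- HSCs, with a log2 fold change of 0.10 ± 0.39 (SE). Ndn, which encodes necdin, a growth suppressor of the MAGE family that restrains HSC proliferation, was 30.5 to 109.4 CPM in WT (median 70.6) and 32.8 to 117.6 CPM in Pon2-/- HSCs (median 90.6), with a log2 fold change of 0.16 ± 0.37 (SE). Both had an adjusted p of 1.0 in edgeR, and each fold change turned to slightly below 0 when 1 library was left out, Pon2-/- replicate 4 or 6 for Grb10 (to -0.03 and -0.05) and WT replicate 3 for Ndn (to -0.005). Within females Ndn averaged 49.6 CPM (WT) and 84.1 CPM (Pon2-/-), within males 94.9 and 78.2 CPM, and Grb10 averaged 47.9 and 41.4 CPM within females and 46.6 and 54.9 CPM within males, so the sign differed between sexes for both. The genotype-by-sex term had an adjusted p of 1.0 for each (edgeR). A p that misses the threshold does not show that these levels were equal.

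Spread between libraries also differed among the 10 genes. It pools the genotypes, so any difference between them is part of it, as for Meg3, which had reads in WT libraries only. Since each library stands for 1 mouse, differences between mice and technical spread cannot be told apart. The coefficient of variation over 12 libraries was 0.389 for Grb10 and 0.399 for Ndn, lower than the median of 0.567 over all tested genes, and 1.14 for Igf2 and 1.22 for Igf2r, above 87.8% and 90.6% of tested genes. The 6 genes that did not pass the filter had values of 1.43 (Meg3) to 3.41 (Plagl1). As the plot of level and spread shows, genes of low level tended to vary more, but level did not order the imprinted genes: Igf2r, at a mean of 12.9 CPM, had a higher coefficient than Igf2 at 3.83 CPM, and Peg3 (2.34 at 3.43 CPM) a higher one than Meg3 (1.43 at 0.884 CPM).

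**Figure D3:**
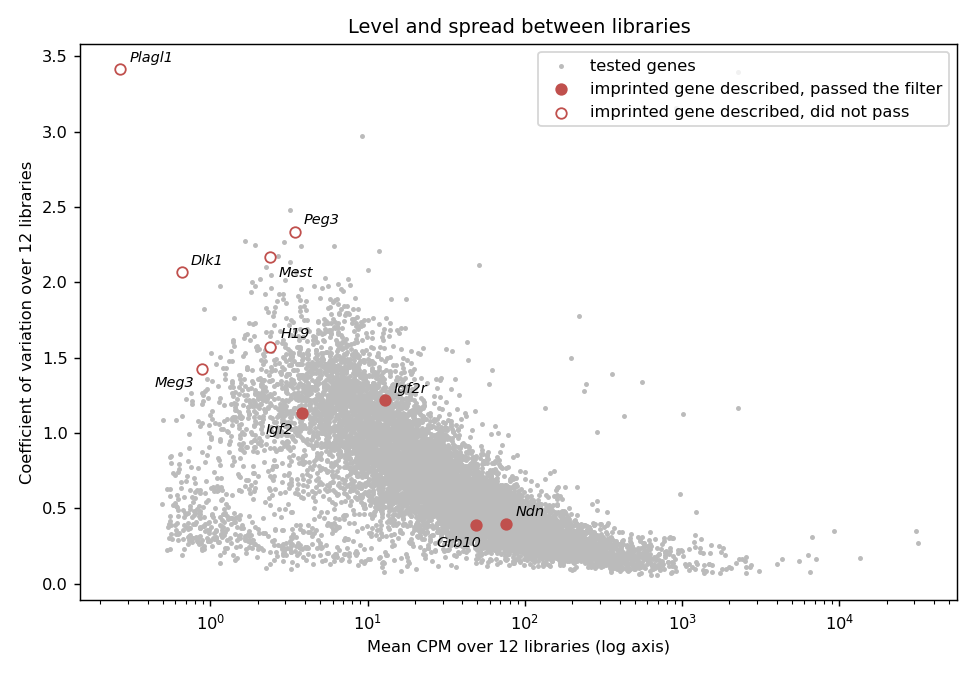
Coefficient of variation over 12 libraries (vertical axis) against mean CPM (horizontal axis, log scale) for all genes tested with edgeR (grey), with the imprinted genes that passed the filter on low counts filled and those that did not open. Grb10 and Ndn sit at 0.389 and 0.399, Igf2 and Igf2r at 1.14 and 1.22, and Plagl1 highest at 3.41.

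The genes most alike in pattern to each tested gene, by Pearson's r of log2 CPM over the 12 libraries, were Zfp958 (r = 0.863), Gm47283 (0.861) and Nbea (0.853) for Igf2. For Igf2r they were Ankrd12 (0.894), Zfp597 (0.894) and Zfp438 (0.882). For Grb10 they were Mrps34 (0.915), Zfp141 (0.887) and B3gntl1 (0.862), and for Ndn they were Dcxr (0.911), Rps27a (0.897) and Llph-ps2 (0.889). These are the 3 highest of 11848 genes for each, all values share the same 12 libraries, and none of the 54 other imprinted genes was among them.

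Other imprinted genes were, like the 10, without a call in edgeR. Of a list of 54 further imprinted genes, 42 had a read, 25 were tested, and 0 were called, with 0 at an unadjusted p below 0.05, 10 fitted above 0 and 15 below. The median log2 fold change was -0.08 for these 25, -0.31 for the 4 tested genes of the 10 and -0.01 for all tested genes. DESeq2 in its standard form called 0 of 30 tested. By level per kb of exon the leading genes of this list and of the IGF list were Cd81 (a tetraspanin) at 207.0, Nap1l4 (a histone chaperone) at 93.5, Tssc4 at 61.7, Igfbp4 (a secreted IGF-binding protein) at 38.7 and Phlda2 (a growth restrainer of the placenta) at 36.1 CPM per kb. These levels are above that of Ndn, and 4 of the 5 genes lie in the region of chromosome 7 next to H19 and Igf2, where imprinting of several genes is known mainly from placenta. Cdkn1c, which encodes the cell cycle inhibitor p57 and was singled out after its values were seen, averaged 14.2 ± 4.80 CPM over the 6 WT and 7.83 ± 2.73 CPM over the 6 Pon2-/- libraries (SD), with a log2 fold change of -0.86 ± 0.63 (SE, edgeR adjusted p = 1.0). It was 1 of 3 genes, among the 42 with a read, at an unadjusted exact permutation p below 0.05 (0.0216), against 3.36% of all genes. The others were Cd81 (642.6 ± 86.7 CPM in WT, 549.3 ± 32.1 in Pon2-/-, exact permutation p = 0.0346) and Htr2a, a serotonin receptor gene also named after its values were seen (14.1 ± 10.0 and 2.44 ± 3.83 CPM, exact permutation p = 0.0476).

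**Figure D4:**
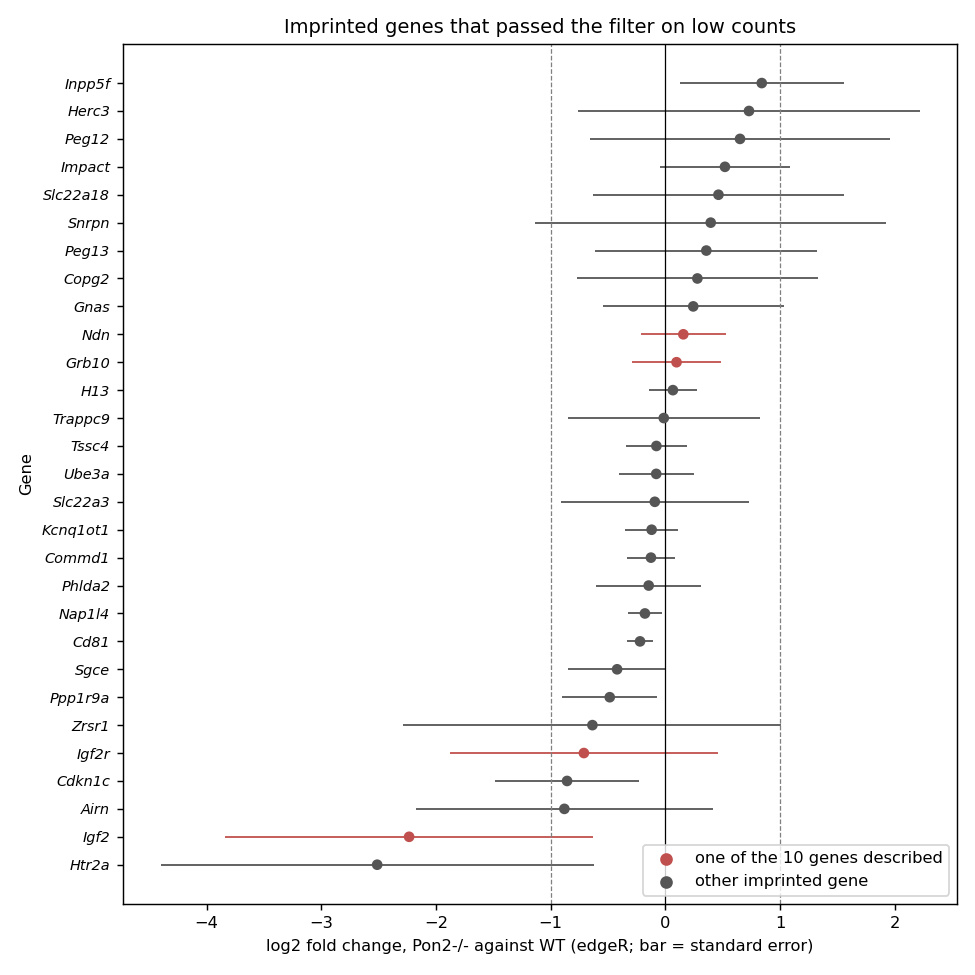
Log2 fold change in Pon2-/- against WT HSCs (horizontal axis; bars are edgeR standard errors, dashed lines mark a fold change of 2) for the 4 imprinted genes described (red) and 25 others (grey) that passed the filter on low counts. Grb10 and Ndn lie near 0 at 0.10 and 0.16, Igf2 lies at -2.23 with a standard error of 1.61, and none was called.

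Genes around the IGF signal were also examined, from a list of 16. It holds the ligand gene Igf1, receptors, substrates and IGF-binding proteins, and also RNA-binding proteins (the Igf2bp genes and Lin28b) that do not carry the signal. Of these, 6 were tested by edgeR and 0 were called, with 2 at an unadjusted p below 0.05, against 371 of all 11848 genes. DESeq2 tested 7 and called 2 lower, against 0.97% of all genes. Igf2bp2, an RNA-binding protein of Igf2 and other messages, averaged 19.4 ± 14.1 CPM over the 6 WT and 1.58 ± 2.21 CPM over the 6 Pon2-/- libraries (SD). Its log2 fold change was -3.60 ± 1.00 (SE) with an adjusted p of 0.0203 in DESeq2. Insr, the insulin receptor, averaged 69.1 ± 36.0 CPM against 27.0 ± 9.05 CPM, and its log2 fold change was -1.35 ± 0.39 (SE) with an adjusted p of 0.0287 in DESeq2. Igf2bp2 is also in the list of changed genes that the study drew from these samples. In edgeR these 2 genes had adjusted p values of 1.0 and 0.889. Their unadjusted exact permutation p was 0.00433 (Igf2bp2) and 0.0152 (Insr), and the genotypes overlapped for both. They were the 2 genes below 0.05 in this test among 12 of the list with a read, against 3.36% of all genes. Of 8 genes that maintain imprints through cell division, among them Dnmt1, Uhrf1, Trim28, Zfp57 and Ctcf, 7 were tested and 0 were called by edgeR or DESeq2.

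Pon2 lies on chromosome 6 in the region of the imprinted genes Peg10 and Sgce, so the genes around the gene trap were compared. Its place is between Ppp1r9a and Asb4, both on the list of other imprinted genes. Peg10 had 0 reads in all libraries. Sgce, a sarcoglycan gene whose nearest end is 517 kb from Pon2, averaged 57.9 ± 29.7 CPM in the 6 WT and 43.1 ± 20.8 CPM in the 6 Pon2-/- libraries, and Ppp1r9a, 98.5 kb away, had 86.9 ± 37.8 and 61.9 ± 28.6 CPM (SD). Neither differed beyond the spread (exact permutation p = 0.314 and 0.284). Asb4, 84.9 kb away on the other side, had 622 reads in WT and 1264 in Pon2-/- HSCs. These lay in 2 libraries of each genotype (exact permutation p = 0.848). Pon3, the paralog of Pon2, 7.86 kb away and not on either imprinted gene list, averaged 46.0 ± 23.1 CPM in the 6 WT and 97.8 ± 36.9 CPM in the 6 Pon2-/- libraries, with a log2 fold change of 1.09 ± 0.36 (SE, edgeR adjusted p = 1.0) and an exact permutation p of 0.0152 unadjusted. It was singled out after its values were seen. Mest lies on the same chromosome, outside the window.

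**Figure D5:**
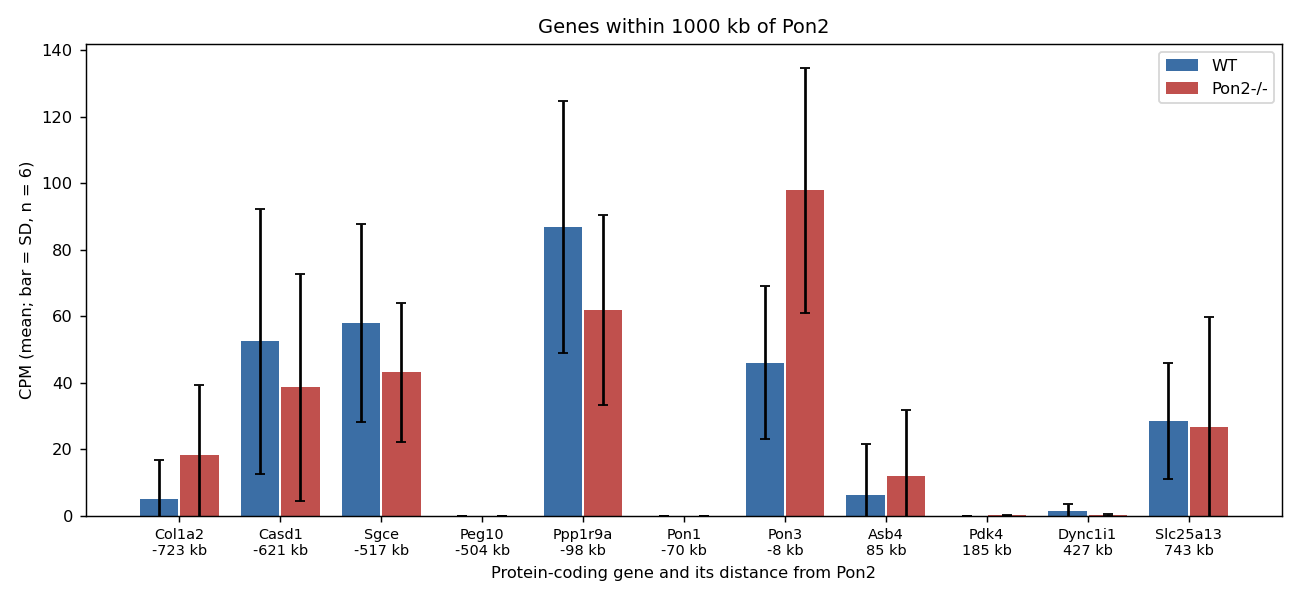
Mean CPM (vertical axis; bars are SD, n = 6 each) of protein-coding genes within 1000 kb of Pon2 in WT (blue) and Pon2-/- (red) HSCs, in order of distance from Pon2. Sgce and Ppp1r9a overlap between genotypes, and Pon3 stands at 46.0 CPM (WT) against 97.8 CPM (Pon2-/-).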

How the data were processed

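RNA-seq was measured in HSCs of 6 WT and 6 Pon2-/- mice. Per the submitters' processing notes and the study's methods, reads were trimmed (Trimmomatic 0.36), mapped to GRCm38.p5 with STAR 2.5.3a and counted per gene with the aligner's gene counting. The authors deposited raw read counts for each mouse, with the wells given as 1 column, and every deposited count column was used. Genes of the count tables were matched to GENCODE release M21 for names, positions and exon lengths. Tests used edgeR 4.0.16 (TMM, filterByExpr, quasi-likelihood, genotype only, 12 libraries, Benjamini-Hochberg over all genes tested, called at an adjusted p below 0.05 and a fold above 2). DESeq2 1.42.0 and limma 3.58.1 were alternatives, as were scaling, filters, a replicate block, sex and leaving out each library. Log2 CPM had a prior count of 2 in the two-sided exact permutation tests over 924 splits. CPM used TMM-scaled library sizes. In data simulated on 11848 genes, edgeR recovered 38% of genes changed 4-fold and 92% of those changed 256-fold, and DESeq2 58% and 96%, with 61 false calls among 224. The members and gene lists were chosen with earlier results of these data known. Named were all 10 genes, listed genes called by edgeR or DESeq2, the 5 of the other imprinted and IGF lists highest per kb, Pon2 and the 3 genes most correlated with each tested member. Limits for zeros used 3 counts and cover counting error only. The mice are separate samples per the labels. Replicate numbers did not pair the samples: deviations of same-numbered libraries correlated by 0.0011 to 0.0431.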

Additional observations from a re-analysis of the deposited data

Results flagged for a closer look

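In 18 groups of 6 libraries with reads for one of the 10 genes, 10 held a library far from the other 5 (a gap to the nearest library that took a larger part of the range than Dixon's 95% critical value), where chance flags about 1 group in 20 if values are normally distributed, which counts with many zeros are not. In every case it was the highest library. Among WT libraries these were Igf2r at 56.1 CPM and Mest at 17.4 CPM, both in replicate 4, Dlk1 at 4.71 CPM and Peg3 at 7.38 CPM, both in replicate 2, Grb10 at 78.4 CPM in replicate 1 and Plagl1 at 3.16 CPM in replicate 5. Among Pon2-/- libraries they were H19 at 1.13 CPM in replicate 1, Dlk1 at 0.885 CPM in replicate 3, and Peg3 at 27.8 CPM and Mest at 0.238 CPM, both in replicate 6. For H19, Dlk1 and Mest in Pon2-/- HSCs the flagged library was the one that had any read, 19, 16 and 4 reads respectively, so with 5 libraries at 0 it had to be flagged.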

How the results depend on the processing

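No alternative changed the count of 0 imprinted genes called among the 10, except DESeq2, which called 1, Meg3, both in its standard form and without its cutoff for outlying counts. Ndn, Grb10, Igf2r and Igf2 were tested in 20 alternative fits and H19 in 10. Meg3, Dlk1, Mest and Peg3 were tested in 3 each, and Plagl1 in 2. The other fits could not call the genes they left out, so their count of 0 says nothing of those genes. Among the other imprinted genes, DESeq2 without that cutoff called 2, Mcts2 and Kcnq1, each with reads in 1 library, and the count was 0 elsewhere. The replicate block gave 0 calls among the 10 and moved the number called over all genes from 24 to 5, with a log2 fold change of Igf2 of -6.65. Numbers were shared only as labels, and 1 of 6 WT libraries correlated best with its own number. Over all genes the call count was 8 without a filter on low counts, 304 with DESeq2, 939 with DESeq2 without its cutoff, and 23 with sex as a covariate, an alternative chosen after seeing the data. The sign of small differences turned with single libraries left out: the fold change (log2) ranged from -1.17 to 0.29 for Igf2r, -0.055 to 0.30 for Grb10 and -0.0050 to 0.32 for Ndn, and that of Igf2 stayed below 0 at -3.48 to -1.87. Differences of mean log2 CPM ranged from -1.08 to 0.24 for Igf2r, -0.16 to 0.30 for Grb10, -0.065 to 0.39 for Ndn and -0.72 to 1.29 for Peg3, and with DESeq2 size factors that of Grb10 was 0.0042. Meg3 had an exact permutation p of 0.00216 to 0.00433 and Igf2 of 0.00649 to 0.0390 without any 1 library, and the limit on Meg3 ran from 49.2-fold to 79.4-fold. The cause of these shifts was not tested. Depth limits what a 0 can show, since a count of 0 in 1 WT library allows up to 0.124 to 0.231 CPM. Zeros also occurred beside higher values. H19 was at 0 in WT replicates 1 and 6 and at 3.52 to 11.4 CPM in the other WT libraries. The part of depth and of the number of sorted cells in these zeros was not tested.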
